A study of Homo sapiens with 8 samples.

Results

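The 10 genes described here encode core factors of nucleotide excision repair: XPA, XPC, ERCC1, ERCC2, ERCC3, ERCC4, ERCC5, ERCC6, ERCC8 and DDB2. They were taken by gene symbol, and all 10 were present among the 17649 gene symbols of the expression table. RNA-Seq was performed on MDA-MB-231 cells, an established ER-negative breast cancer cell line. In all, 4 libraries from cells exposed to 1 μM carboxymethyllysine (CML, a glycated lysine formed under high sugar) for 48 hours were compared with 4 control libraries from cells that received PBS, all in low-glucose medium. Both groups were the same cell line, so differences between donors or genotypes do not enter, and the results describe 1 line at 1 dose and 1 time. The labels call the exposed libraries NCML and number the replicates 1 to 4 in each group.

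Nucleotide excision repair removes bulky, helix-distorting lesions, such as those made by ultraviolet light or by large chemical adducts. Damage is found in 2 ways: the XPC and DDB2 complexes scan the whole genome, and the ERCC6 (CSB) and ERCC8 (CSA) proteins act where RNA polymerase II has stalled on a transcribed strand. Both routes lead to TFIIH, whose helicases ERCC3 (XPB) and ERCC2 (XPD) open the DNA. XPA verifies the lesion, ERCC5 (XPG) cuts on the 3′ side of it, ERCC1 with ERCC4 (XPF) cuts on the 5′ side, and the gap is filled by replication polymerases and sealed by ligases. Inherited loss of these genes causes xeroderma pigmentosum or Cockayne syndrome.

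All levels are in CPM, the share of a library's reads that fall on a gene after the authors' scaling. The steps between low values gave an estimated 16559911 to 17729514 reads in the control libraries and 16161795 to 18954726 in the CML libraries, with no difference between the groups (exact permutation test, 2-sided, p = 0.714 over 70 labellings). No 2 of the 8 libraries were identical. The labelled cell type was checked against markers. VIM, AXL and CD44, which are high in mesenchymal breast cancer lines, were abundant. The keratin genes KRT8 and KRT18 were abundant too, averaging 213 and 330 CPM in controls and 230 and 338 CPM with CML. Of the listed markers of estrogen receptor positive cells, PGR and FOXA1 were near 0. TFF1 averaged 0.621 CPM in controls and 0.645 CPM with CML, and GATA3 averaged 4.96 and 4.29 CPM. ESR1, the estrogen receptor gene, was listed but had no entry in the expression table. Of 7 markers of other cell types, PTPRC of leukocytes, VWF of endothelium and COL3A1 of fibroblasts averaged below 1 CPM in both groups. COL3A1 was uneven, at 3.35 CPM in CML replicate 3 and at most 0.116 CPM in any other library. PECAM1 averaged 3.41 CPM in controls and 3.00 CPM with CML, PDGFRB 3.79 and 4.42, COL1A1 10.5 and 11.1, and CD68, a macrophage marker that other cells also express, 172 and 166. The summed level of the 7 ran from 178 to 200.5 CPM in controls and from 169 to 194 CPM with CML. The replicates are not stated to be independent cultures, so p-values measure the spread between these libraries, which may be technical. The replicate 4 library of each group stood apart with GC content, as described below for the members it touches.

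None of the 10 genes changed with CML at the false discovery rate of 0.3 that the study used for this experiment. This 0 of 10 stands beside 158 of 17649 genes called in the whole table, or 0.895%, a rate at which fewer than 1 call would fall among 10 genes. No member reached an unadjusted p under 0.05 in the main limma fit, against 7.66% of all genes. XPC did so under some alternative settings, given in the closing section. In the main fit no gene of the whole table passed an adjusted p of 0.05. These are bulk libraries, in which fewer cells expressing a gene and less RNA per cell cannot be told apart. In every one of the 10 genes the control and CML libraries overlapped, whereas 3.78% of all genes had groups that did not overlap, 2.5% with CML higher and 1.27% with CML lower. Fold changes were above 0 in 6 members and below 0 in 4, with a median of 0.03 on the log2(CPM + 1) scale, beside a median of 0.01 over all genes. Over the 8209 genes with a mean inside the range of the members, the median was 0.02 and 59.3% lay above 0. Adjusted p-values (limma, Benjamini-Hochberg over all genes) ran from 0.700 for XPC to 1 for ERCC3, ERCC4 and DDB2.

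**Figure D1:**
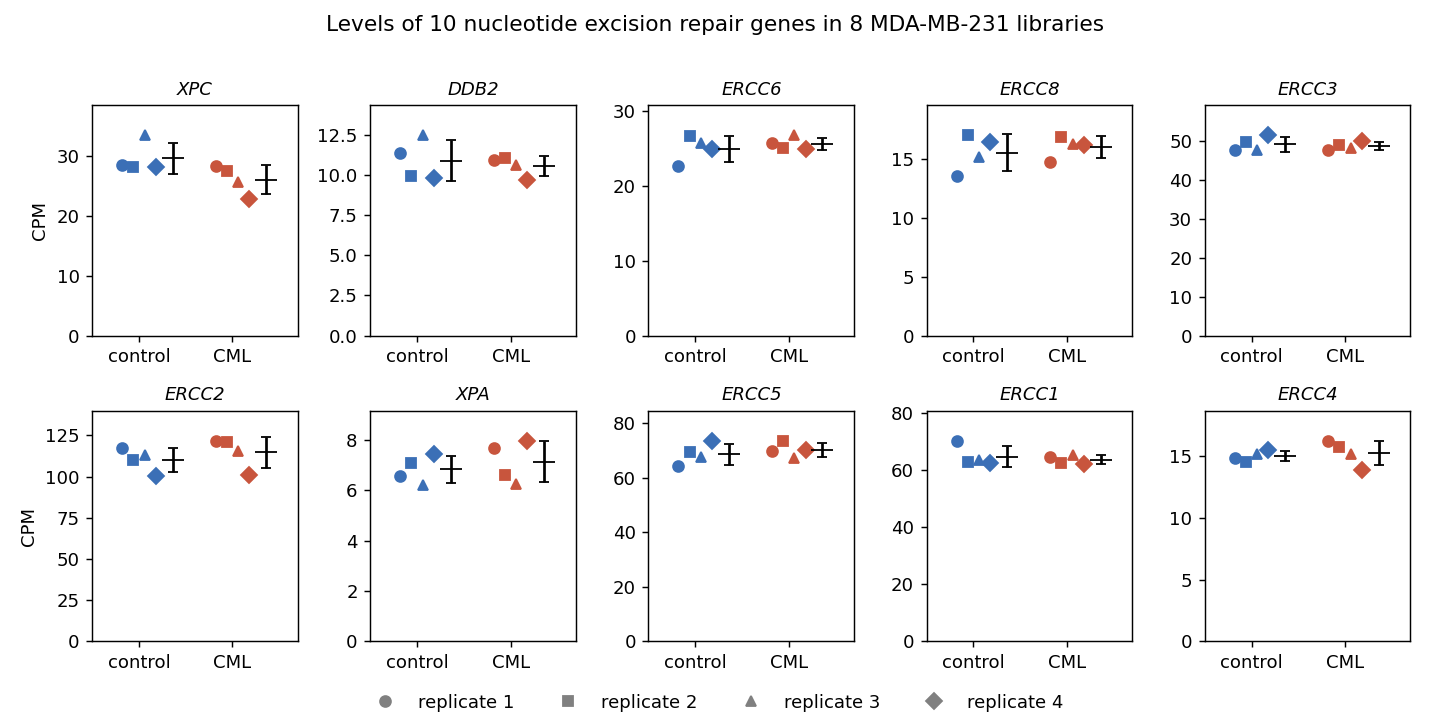
Level of each of the 10 genes (CPM, axis from 0) in 4 control and 4 CML libraries, with 1 marker shape per replicate number and the mean ± SD as a black bar beside each group. The groups overlap in all 10 panels, XPC has the lowest CML points relative to its controls, and ERCC2 is low in both replicate 4 libraries.

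XPC, the sensor that binds the strand opposite a lesion in the genome-wide route, had the largest fold change of the 10 genes. It lies on the minus strand of chromosome 3 (GRCh38, chr3:14145147-14178601). A noncoding RNA gene, XPC-AS1, overlaps XPC by 3890 bases. XPC-AS1 had no entry of its own, and reads of the 2 may not be separable. The level of XPC was 28.6, 28.3, 33.4 and 28.2 CPM in control replicates 1 to 4 and 28.3, 27.5, 25.7 and 22.8 CPM in CML replicates 1 to 4. CML replicate 1 lay inside the control range and the other 3 CML libraries lay below it. The mean was 29.6 ± 2.57 CPM in controls and 26.1 ± 2.46 CPM with CML (SD, n = 4 each), a log2 fold change of -0.18 ± 0.08 (SE; adjusted p = 0.700, limma). The 95% interval of the change, -23.0% to 1.33%, included 0. This and the intervals below are for CPM + 1, so they are somewhat too narrow as changes in CPM for genes at low levels. Leaving out control replicate 3, the highest library, gave a log2 fold change of -0.12, and leaving out CML replicate 4, the lowest, also gave -0.12. XPC was read an estimated 366 to 553 times per library, so counting alone gives a coefficient of variation of 4.59%, whereas its replicates varied by 8.67% in controls and 9.42% with CML.

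The promoter of XPC is printed because XPC is the member with the largest fold change and because its start faces that of another gene, LSM3, at a distance of 216 bases. The window runs from 250 bases before to 50 bases after the start of transcription (RefSeq, GRCh38.p14, chr3:14178552-14178851, minus strand, 5′ to 3′). Capitals mark an E2F-type match (TTTCCCGC) and a GC box (GGGCGG).
XPC: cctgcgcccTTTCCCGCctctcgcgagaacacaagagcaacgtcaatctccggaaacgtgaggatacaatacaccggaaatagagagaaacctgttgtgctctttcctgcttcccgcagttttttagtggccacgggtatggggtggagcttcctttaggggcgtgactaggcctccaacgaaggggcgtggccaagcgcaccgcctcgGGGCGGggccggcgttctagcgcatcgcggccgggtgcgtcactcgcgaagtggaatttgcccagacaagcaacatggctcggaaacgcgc
LSM3, which encodes a subunit of an RNA-processing ring, had a mean of 25.7 CPM in controls and 23.5 CPM with CML, a log2 fold change of -0.12 (adjusted p = 0.850, limma). LSM3 was singled out for its position after values had been seen.

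DDB2, which with DDB1 binds ultraviolet photoproducts ahead of XPC, was close to level. It lies on the plus strand of chromosome 11 (chr11:47214454-47239217). Its level was 11.4, 9.93, 12.5 and 9.80 CPM in controls and 10.9, 11.1, 10.6 and 9.71 CPM with CML. Control replicate 3 was the highest of the 8 libraries and CML replicate 4 the lowest. Its log2 fold change was -0.03 ± 0.08 (SE; adjusted p = 1, limma), and its 95% interval reached from -15.0% to 12.2%. At 156 to 207 reads per library, counting alone gives a coefficient of variation of 7.39%, beside 11.6% among controls and 5.82% among CML libraries. XPC and DDB2 shared control replicate 3 as their highest library and CML replicate 4 as their lowest. With the group means removed, the correlation of XPC with DDB2 over the 8 libraries was 0.83, the highest of the 45 pairs of members.

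The partners of these sensors were measured at higher levels per length. RAD23B, which holds XPC in a stable complex, had 79.9 CPM per kilobase of transcript, CETN2, the third subunit, had 39.6, and XPC itself had 7.63. DDB1 had 100.5 CPM per kilobase beside 5.92 for DDB2, and DDB1 also serves ubiquitin ligases outside repair. None of the 9 genes of the damage recognition step was called. The 3 outside the members with the smallest p were DDB1 with a log2 fold change of 0.05 (adjusted p = 0.770), CUL4A with 0.07 (adjusted p = 0.832) and CETN2 with -0.04 (adjusted p = 0.917), all in limma.

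ERCC6 and ERCC8, the factors specific to the transcription-coupled route, were level between the groups. ERCC6, a chromatin remodeler that binds stalled RNA polymerase II, was 22.6, 26.6, 25.7 and 24.8 CPM in controls and 25.7, 25.0, 26.7 and 25.0 CPM with CML. Control replicates 1 and 4 fell below the range of the CML libraries, and the other 2 controls lay within it. ERCC6 had a log2 fold change of 0.04 ± 0.05 (SE; adjusted p = 0.959, limma), with an interval of -5.67% to 11.8%. The annotation places PGBD3, a transposon-derived gene, within ERCC6 over 9177 bases on the same strand, and reads of the 2 may not be separable.

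ERCC8, the substrate receptor of a ubiquitin ligase recruited by ERCC6, was 13.5, 17.0, 15.1 and 16.4 CPM in controls and 14.7, 16.9, 16.2 and 16.2 CPM with CML. Control replicate 1 was the lowest library, and the other 7 ran from 14.7 to 17.0 CPM. The log2 fold change was 0.05 ± 0.08 (SE; adjusted p = 0.980, limma), with an interval of -9.11% to 17.2%. Values of ERCC8 did not fall on whole reads in any of the 8 libraries, and a pseudogene, GNL3LP1, lies inside the gene. A noncoding RNA gene without an entry, ERCC8-AS1, overlaps ERCC8 by 2385 bases on the opposite strand. The gene spans chr5:60866454-60945070 on the minus strand and starts 135 bases from the start of NDUFAF2, which encodes an assembly factor of mitochondrial complex I. NDUFAF2, also singled out for its position, had a mean of 27.9 CPM in controls and 29.1 CPM with CML, a log2 fold change of 0.07.

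The ERCC8 promoter is printed because its start also faces that of a protein-coding gene (RefSeq, GRCh38.p14, chr5:60945021-60945320, minus strand, 5′ to 3′). Capitals mark CCAAT boxes (CCAAT, or ATTGG on the other strand) and a GC box in reverse (CCGCCC).
ERCC8: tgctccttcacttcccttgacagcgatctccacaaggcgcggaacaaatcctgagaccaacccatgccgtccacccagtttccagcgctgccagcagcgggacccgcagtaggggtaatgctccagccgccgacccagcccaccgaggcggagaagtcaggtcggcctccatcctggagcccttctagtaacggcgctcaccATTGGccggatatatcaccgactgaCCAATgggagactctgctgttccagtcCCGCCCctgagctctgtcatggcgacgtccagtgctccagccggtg
The motifs were searched on both strands of all RefSeq promoter windows of protein-coding genes. GGGCGG was present in 56.3% of 22199 windows and in 9 of the 14 windows of the members. CCAAT was present in 34.7% of all windows and in 4 of those 14. TATAAA was present in 9.47% and in none of the 14, and an E2F-type match (TTTGGCGC, TTTCCCGC, TTTCGCGC or TTTGCCGC) in 4.1% and in the XPC window alone among the members. These are matches of letters, not sites shown to be bound.

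None of the 10 genes of the transcription-coupled step was called. UVSSA, which stabilizes ERCC6 at the stalled polymerase, had the smallest p of them, with 41.9, 43.2, 43.8 and 44.9 CPM in controls and 40.2, 42.9, 40.5 and 41.1 CPM with CML. Its groups overlapped through CML replicate 2, and its log2 fold change of -0.08 had an adjusted p of 0.590 in limma. XAB2 at 0.12 and the elongation factor gene TCEA1 at -0.04 both had an adjusted p of 0.897.

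TFIIH is the complex in which the members ERCC3 and ERCC2 work. ERCC3, the translocase that starts the opening of the DNA, was the most narrowly measured of the 10 genes: it was 47.5, 49.6, 47.6 and 51.3 CPM in controls and 47.6, 48.8, 48.1 and 50.0 CPM with CML. All 4 CML libraries lay inside the control range. Its log2 fold change was -0.01 ± 0.03 (SE; adjusted p = 1, limma), and its interval, -5.40% to 4.24%, was the narrowest among the members.

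ERCC2, the helicase that unwinds around the lesion, was the most abundant member, with 117, 110, 113 and 100.4 CPM in controls and 122, 121, 116 and 101 CPM with CML. Both replicate 4 libraries were below the other 6, which ran from 110 to 122 CPM. The log2 fold change was 0.06 ± 0.07 (SE; adjusted p = 0.952, limma), with an interval of -7.66% to 17.1%. With 1623 to 2257 reads per library, counting alone gives a coefficient of variation of 2.28%, and the replicates varied by 6.48% in controls and 8.31% with CML. ERCC2 overlaps KLC3 on the opposite strand by 1683 bases, and whether the counting used strand is not given for these libraries in the sources used here.

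The low ERCC2 in the replicate 4 libraries went with base composition. The canonical ERCC2 transcript has the highest GC content of the members, 60.0%, and over the 10 genes the deviation of replicate 4 from the other libraries of its group had a Spearman rho with GC content of -0.67 in controls and -0.38 with CML. Over 12929 genes the same values were -0.59 and -0.53. The deviations of the replicate 4 libraries correlated across the 10 genes with r = 0.78, and 8 of the 10 genes deviated to the same side in both. These correlations are across genes of shared libraries and are given as a description, and the part of GC content in any fold change was not tested beyond the adjusted values that follow.

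**Figure D2:**
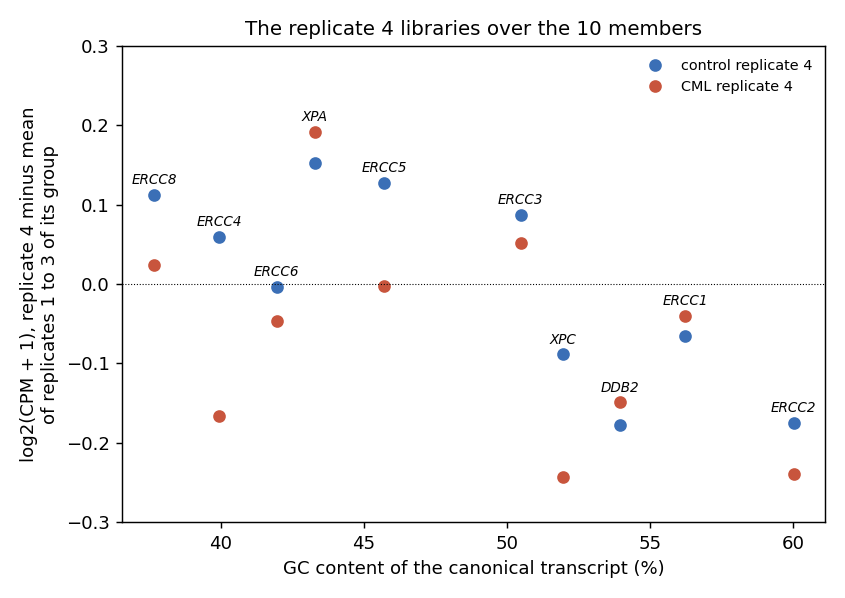
Deviation of each replicate 4 library from the mean of replicates 1 to 3 of its group (log2(CPM + 1)) against the GC content of the canonical transcript (%), 1 point per gene and library. ERCC2, at 60.0% GC, is low in both replicate 4 libraries, and XPA, at 43.3%, is high in both. Not every gene follows its GC content: ERCC4, at 39.9%, deviates by 0.06 in control replicate 4 and by -0.17 in CML replicate 4.

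Levels in each library were then adjusted for GC content and for length of the transcript, over genes that averaged 1 CPM or more. In this fit XPC passed the false discovery rate of 0.3, and it was the one member to do so. With the filter at 1 CPM and no adjustment for GC content and length, XPC had an unadjusted p of 0.0316 and an adjusted p of 0.651 (limma). The adjusted levels of XPC were 28.8, 29.0, 33.0 and 27.9 CPM in controls and 28.3, 27.1, 25.5 and 23.1 CPM with CML. CML replicate 1 still lay inside the control range. The mean was 29.7 ± 2.26 against 26.0 ± 2.28 CPM (SD, n = 4 each). Its log2 fold change was -0.19 (adjusted p = 0.219, limma). In this fit 859 of 12929 genes were called, or 6.64%, and 312, or 2.41%, were called lower, so 1 of 10 is read against a wider background. The log2 fold change of ERCC2 was 0.05 after the adjustment, and the SD of its control libraries fell from 7.15 to 2.21 CPM.

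**Figure D3:**
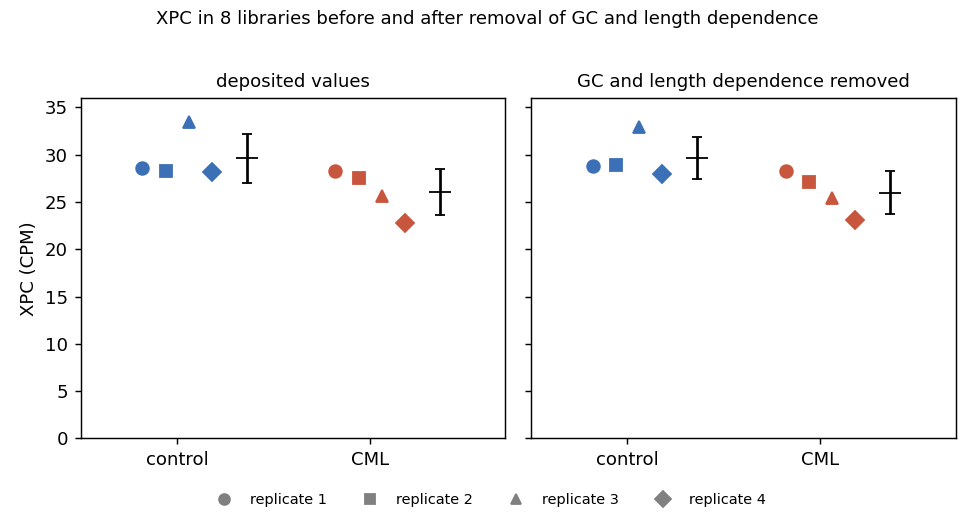
XPC (CPM, axis from 0) in the 8 libraries as deposited (left) and after adjustment for GC content and length in each library (right), with the mean ± SD as a black bar. Control means of 29.6 and 29.7 CPM and CML means of 26.1 and 26.0 CPM show that the adjustment left the difference nearly as it was, and CML replicate 1 overlaps the controls in both.

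Among the other subunits of TFIIH, 3 of 8 had CML libraries that all lay above every control library, a pattern that 2.5% of all genes showed in that direction. The same 3 had an unadjusted p under 0.05, which 4.77% of all genes reached with CML higher, and none of the 3 passed the adjusted threshold. GTF2H2 had a mean of 14.9 CPM in controls and 17.9 CPM with CML (log2 fold change 0.25, adjusted p = 0.369). MNAT1, which assembles the CDK-activating kinase, had 30.0 and 33.0 CPM (0.13, adjusted p = 0.364), and GTF2H3 had 81.8 and 88.8 CPM (0.12, adjusted p = 0.397), all in limma. GTF2H2 has near-identical copies in the genome and its values were not whole reads in any library, so its level is uncertain. Of these copies, GTF2H2B averaged 9.25 CPM in controls and 7.39 CPM with CML (log2 fold change -0.28, adjusted p = 0.897, limma), and GTF2H2C 31.9 and 31.3 CPM (-0.02). Per kilobase of transcript the subunits ranged from 2.79 CPM for GTF2H5 to 44.8 CPM for CDK7, with ERCC2 at 27.4 and ERCC3 at 18.0.

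Of the 7 verification and incision genes, none was called, and RPA1, described below, was the 1 with an unadjusted p under 0.05. XPA, the scaffold that checks the lesion and positions the nucleases, was the least abundant member in CPM, with 6.56, 7.09, 6.23 and 7.47 CPM in controls and 7.70, 6.63, 6.28 and 7.96 CPM with CML. Replicate 4 was the highest library of each group and replicate 3 the lowest. XPA had a log2 fold change of 0.05 ± 0.09 (SE; adjusted p = 0.979, limma). Its interval of -10.5% to 20.1%, for CPM + 1, was the widest upward among the members. XPA was read only 103 to 133 times per library, and counting alone gives a coefficient of variation of 9.17%, close to the 8.05% and 11.4% seen in controls and with CML. A shift of a few percent in XPA was not detectable at this depth. XPA shares 19351 bases of its span with NCBP1, which averaged 72.7 CPM in controls and 76.5 CPM with CML, and reads of the 2 may not be separable.

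ERCC5, the 3′ nuclease, was 64.1, 69.5, 67.6 and 73.3 CPM in controls and 69.9, 73.3, 67.3 and 70.002 CPM with CML. Control replicate 1 was the lowest library, and 3 of the 4 controls lay between 67.6 and 73.3 CPM. The log2 fold change was 0.03 ± 0.04 (SE; adjusted p = 0.957, limma), with an interval of -4.86% to 9.99%. ERCC5 lies wholly inside a readthrough gene, BIVM-ERCC5, which was listed at 1.68 CPM in control replicate 1 and at 0 in the other 7 libraries. Summing both entries, a choice made after seeing the data, gave a log2 fold change of 0.02.

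ERCC1 and ERCC4 encode the partners of 1 nuclease, and neither can cut without the other. ERCC1 was 70.2, 62.7, 63.4 and 62.4 CPM in controls and 64.7, 62.4, 65.1 and 62.3 CPM with CML. Control replicate 1 stood above the other 7 libraries, which ran from 62.3 to 65.1 CPM. Its log2 fold change was -0.02 ± 0.04 (SE; adjusted p = 0.987, limma), with an interval of -7.87% to 5.29%. ERCC1 overlaps POLR1G on the opposite strand by 3404 bases.

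ERCC4 was 14.8, 14.5, 15.2 and 15.5 CPM in controls and 16.2, 15.7, 15.2 and 13.9 CPM with CML. CML replicates 1 and 4 were its highest and lowest libraries, with all controls between them. Its log2 fold change was 0.02 ± 0.05 (SE; adjusted p = 1, limma), with an interval of -6.81% to 10.4%. Per kilobase of transcript ERCC1 stood at 19.0 CPM and ERCC4 at 2.24 CPM. ERCC1 was highest in control replicate 1 and ERCC4 in CML replicate 1, and with group means removed their correlation over the 8 libraries was 0.09.

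RPA binds the undamaged strand during verification. RPA1, its large subunit, was 89.3, 90.3, 84.3 and 89.0 CPM in controls and 95.5, 99.0, 94.9 and 103.9 CPM with CML, so the groups did not overlap. It had a log2 fold change of 0.15 (adjusted p = 0.314, limma), just above the threshold. RPA1 was called with genes that averaged under 1 CPM left out (adjusted p = 0.261), after adjustment for GC content and length (0.0532) and without control replicate 4 (0.279), all in limma. The smaller subunits RPA2 and RPA3 had log2 fold changes of 0.06 and 0.05 with adjusted p of 0.959 and 0.897.

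Gap filling was the step in which a pathway gene was called. POLE4, a small subunit of DNA polymerase epsilon that binds histone-like partners, was 17.1, 16.2, 16.4 and 16.6 CPM in controls and 17.9, 20.7, 19.4 and 19.8 CPM with CML. Every CML library lay above every control library. The mean rose from 16.6 ± 0.361 to 19.4 ± 1.13 CPM (SD, n = 4 each), a log2 fold change of 0.22 ± 0.04 (SE; adjusted p = 0.269, limma). CML was called higher in 0.674% of all genes. The call held without control replicate 4 (adjusted p = 0.254) and without CML replicate 1 (0.210), and was lost without any of the other 6 libraries, with adjusted p of 0.386 to 0.487 in limma. It was also lost with centring on the library median (0.442), with no moderation (0.363), with the replicate block (0.408), with genes that averaged under 1 CPM left out (0.364) and, a choice made after seeing the data, without both replicate 4 libraries (0.386). PCNA, the sliding clamp, had a log2 fold change of 0.17 (adjusted p = 0.554), and POLE2, the second subunit of polymerase epsilon, had 0.26 (adjusted p = 0.626). Fold changes were above 0 in 14 of the 18 genes of this step, with a median of 0.04, while the ligase genes LIG1 and LIG3 had 0.00 and 0.02. The gap-filling genes also serve replication: in the proliferation list, 10 of 25 genes were called higher, none lower, and the summed level ran from 1057 to 1130 CPM in controls and from 1238 to 1263 CPM with CML. The part of that difference in the gap-filling values was not tested.

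**Figure D4:**
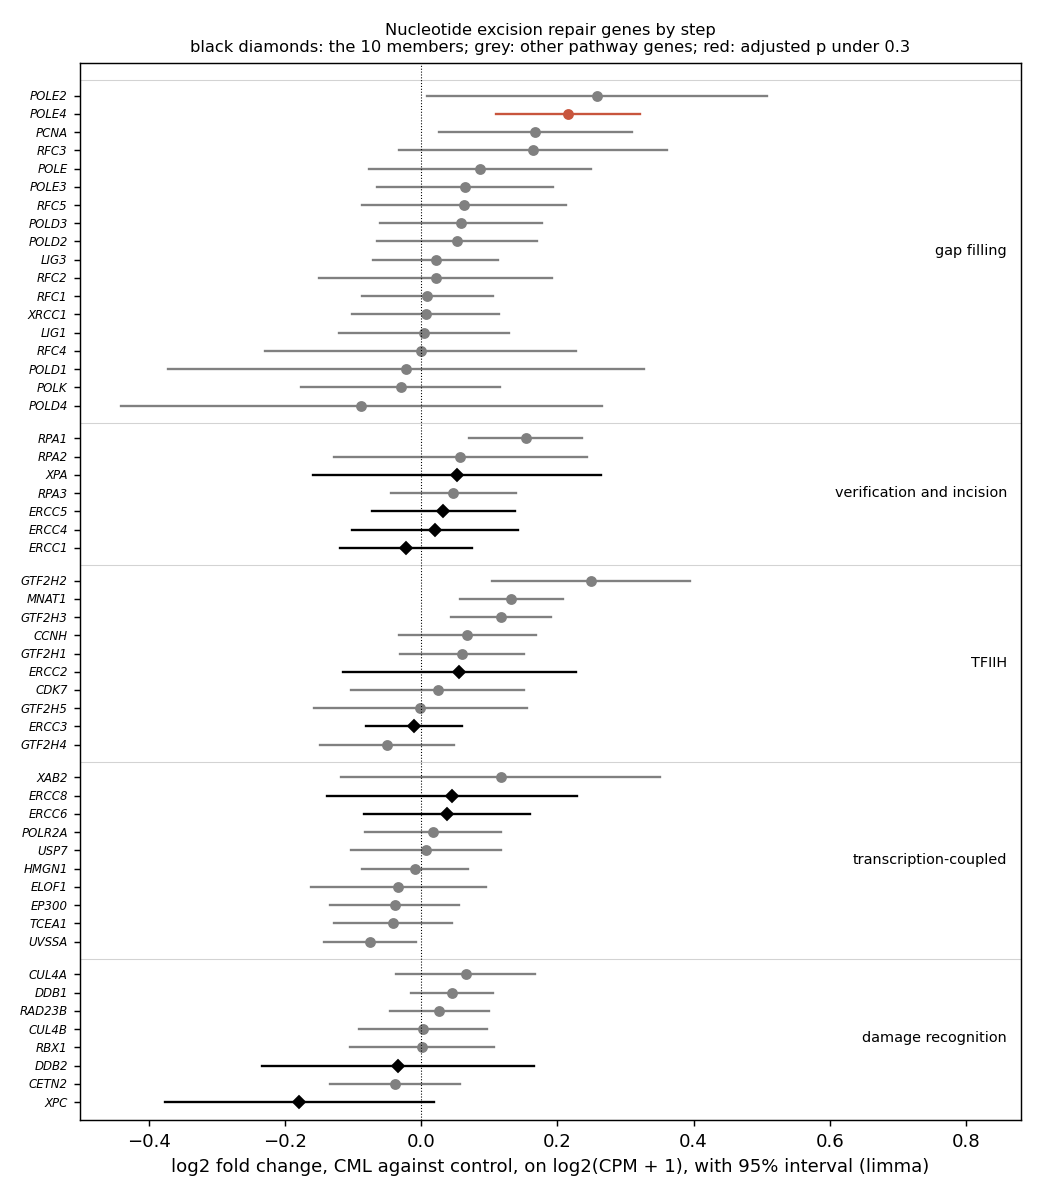
Log2 fold change of CML against control, on log2(CPM + 1), with 95% intervals from limma for 53 of the 54 nucleotide excision repair genes, grouped by step. The intervals of the 10 members (black diamonds) all include 0, and POLE4 (red, 0.22) is the one gene with an adjusted p under 0.3.

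Across the whole pathway, POLE4 was the 1 gene called of 54, where 0.895% of all genes were called. A count of 1 is therefore not read as a result about the pathway. The same share stands beside the counts of the repair lists compared below. The median log2 fold change was 0.03 over the 54 genes, and 38 of them lay above 0, or 70.4%, beside 58.8% of the 13047 genes that averaged 1 CPM or more. By step, the median was 0.00 for damage recognition and for the transcription-coupled step, 0.06 for TFIIH, 0.05 for verification and incision and 0.04 for gap filling. For comparison, base excision repair, which removes small base lesions, had a median of 0.03 with none of 22 genes called, and mismatch repair, which corrects replication errors, had a median of 0.06 with none of 8 called. The leading genes of these lists were APLF at 0.20 and PARP1 at 0.10, and PMS1 at 0.13 and EXO1 at 0.12, with adjusted p from 0.398 to 0.836 in limma. The differences between these lists were not tested.

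The members differed more from each other than between conditions. Per kilobase of transcript the order was ERCC2 at 27.4 CPM, ERCC1 at 19.0, ERCC3 at 18.0, ERCC5 at 17.8, XPC at 7.63, DDB2 at 5.92, XPA at 4.99, ERCC6 at 2.81, ERCC4 at 2.24 and ERCC8 at 1.67. Over the 8 libraries, neighbours in this order overlapped in range from ERCC1 to ERCC3 to ERCC5 and from XPC to DDB2 to XPA. ERCC2 stood above all others, and ERCC6, ERCC4 and ERCC8 had ranges apart from each other and from XPA. Among 12929 genes that averaged 1 CPM or more, ERCC2 was at percentile 79.9 and ERCC8 at 16.8. The 2 transcription-coupled factors and the ERCC4 nuclease formed the low end, and the TFIIH helicase ERCC2 the high end. The low-end genes also have the longest canonical transcripts of the members: 9414 bases for ERCC8, 9001 for ERCC6 and 6764 for ERCC4. In CPM, not divided by length, XPA and DDB2 were the lowest members, so the low end depends on the lengths used. Lengths are of the canonical transcript, and an expressed transcript of another length would shift these levels.

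**Figure D5:**
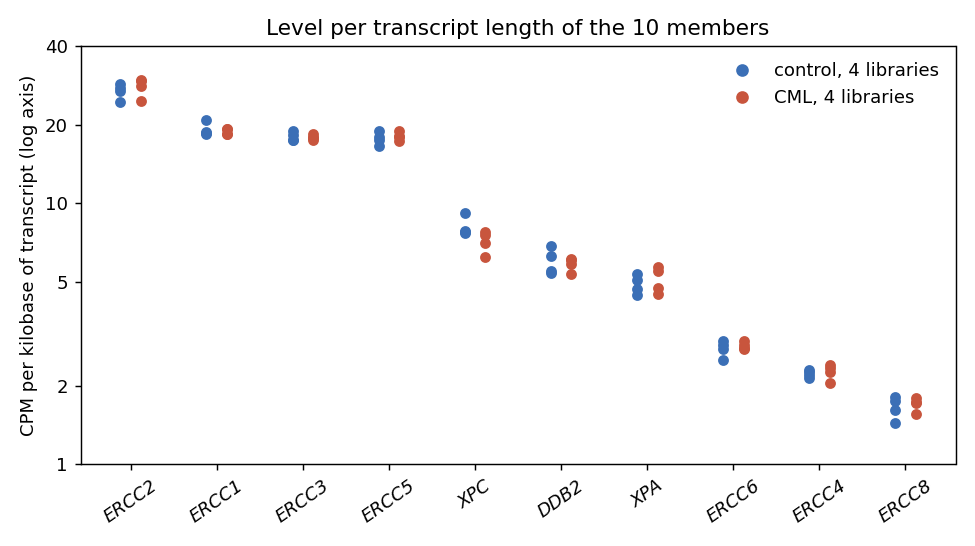
CPM per kilobase of canonical transcript (log axis) of the 10 genes in order of mean level, with control libraries left and CML libraries right of each gene. ERCC2 runs from 24.4 to 29.6 and ERCC8 from 1.43 to 1.80, and within each gene the groups overlap.

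After removal of group means, the 45 pairs of members had a median correlation of -0.01 over the 8 libraries. Of these, 22 were above 0, 7 above 0.7 and 4 below -0.7. The positive pairs included XPC with DDB2 at 0.83 and ERCC3 with ERCC5 at 0.76, and the most negative was ERCC3 with DDB2 at -0.86. XPC, ERCC2 and DDB2, whose transcripts have 51.9%, 60.0% and 53.9% GC, correlated with each other at 0.73 to 0.83. ERCC1, at 56.2% GC, correlated with them at 0.03, 0.54 and 0.39, and XPC correlated at 0.76 with ERCC4, at 39.9% GC. These values are a description, since all pairs share the same libraries with their depth and GC dependence.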

How the data were processed

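RNA-Seq was performed on 8 libraries of MDA-MB-231 cells. Both NextSeq and HiSeq are given in the labels as the sequencer. The CPM values used were deposited by the authors, 1 column per library, scaled with edgeR against hg38 as the processing notes list. For the study's tumors the methods name a stranded kit, Tophat, hg19 and Ensembl; for the CML libraries the aligner, counter, annotation and use of strand are not given in the sources used here, and hg38 differs from that build. Groups came from sample titles, and all 8 columns were used. Because 82% to 83.2% of values under 20 CPM were whole reads (tolerance 0.02 reads), no count test was run. For 32 symbols with more than 1 entry, none of them a member, values were averaged. log2(CPM + 1) was fitted with limma 3.58.1 in R 4.3.3 (trend, moderated), with Benjamini-Hochberg adjustment over all 17649 genes. Calls were made at 0.3. Transcript length and GC content came from GENCODE canonical transcripts, positions and promoters from RefSeq GRCh38.p14.

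The members and gene lists were chosen with earlier results of these data known. Besides the members, the 3 genes of each repair step and the 2 of each other list with the smallest p outside the members were named, with annotated overlapping genes. Other genes are named for position or role, and were chosen after values were seen. Some genes and 1 gene list are not reported here.

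Alternatives were a pseudocount of 0.1, a mean of at least 1 CPM, centring on the library median, quantile normalization, no trend, no moderation, a replicate block, removal of GC and length dependence by polynomials of degree 3, and leaving out each library.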

Additional observations from a re-analysis of the deposited data

Results flagged for a closer look

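In 4 of 68 groups of 4 libraries, 1 library lay far from the other 3 by Dixon's criterion, where chance gives about 1 in 20, or 3.4. XPC was 33.4 CPM in control replicate 3, with the other controls between 28.2 and 28.6 CPM. ERCC1 was 70.2 CPM in control replicate 1, with the others between 62.4 and 63.4 CPM. POLE2 was 4.47 CPM in control replicate 1, with the others between 3.02 and 3.25 CPM. The estimated reads of control replicate 4 were 17729514, with the other controls between 16559911 and 16690407. Without control replicate 3 the log2 fold change of XPC was -0.12, and without control replicate 1 that of ERCC1 was 0.02. Also without control replicate 1, POLE2 had a log2 fold change of 0.36 and was called (adjusted p = 0.269, limma). No cause was tested.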

How the results depend on the processing

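None of the 10 members was called under any alternative except after adjustment for GC content and length, where XPC alone made the count 1. In limma, XPC had an unadjusted p of 0.0316 with a mean of at least 1 CPM, 0.0345 with centring and 0.0412 with quantile normalization. Its unadjusted p was also under 0.05 after the GC and length adjustment (0.0102) and without CML replicate 1 (0.0469). Calls over all genes, 158 as reported, came to 73 with centring, 84 with no moderation, 859 after the GC and length adjustment, 321 without both replicate 4 libraries (chosen after seeing the data), and 20 (without CML replicate 2) to 690 (without control replicate 4) with 1 library left out. The pathway count of 1 became 0 with centring, with no moderation, with the replicate block and without both replicate 4 libraries, 7 after the GC and length adjustment (5 higher, 2 lower), and 0 to 5 with 1 library left out, 5 being without control replicate 4. With a mean of at least 1 CPM, POLE4 had an adjusted p of 0.364 and RPA1 was called in its place. Without control replicate 1, POLE2 was called in place of POLE4. The causes were not tested, beyond the fewer libraries or genes in the fits concerned.

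Direction turned in 6 members when 1 library was left out. The log2 fold change ranged from -0.038 to 0.017 for ERCC1 (above 0 without control replicate 1), -0.025 to 0.012 for ERCC3 (above 0 without control replicate 4), -0.0082 to 0.062 for ERCC4 (below 0 without CML replicate 1), -0.0065 to 0.069 for ERCC6 and -0.016 to 0.088 for ERCC8 (both below 0 without control replicate 1). For DDB2 it ranged from -0.078 to 0.027, with 0.027 without control replicate 3 and 0.0032 without CML replicate 4. XPC stayed below 0, from -0.22 to -0.12.

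The deviations of libraries with the same replicate number correlated at 0.20, -0.03, -0.06 and 0.33 for replicates 1 to 4, beside a mean of -0.04 between different numbers. Because group means were removed, that mean is nearly fixed by the same-number values and is not a separate baseline. Since 2 of the 4 pairs did not correlate, the numbers were not taken as a pairing, although the replicate 4 libraries shared a deviation linked to GC content. With the replicate number as a block, 189 genes were called in all, no member was called (XPC adjusted p = 0.566, limma) and POLE4 had an adjusted p of 0.408. In the main fit the 95% intervals of all 10 members included 0, and their outermost bounds were -23.0% for XPC and 20.1% for XPA. After the GC and length adjustment the interval of the XPC log2 fold change, -0.32 to -0.05, did not include 0. A change within a member's own interval was not excluded by these libraries. The spread between replicates was above counting error in 8 of 10 members among controls and 5 of 10 with CML.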
